A study of Caenorhabditis elegans with 20 samples.

Results

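The 10 genes described here are those of the *C. elegans* Wnt ligands (*lin-44*, *egl-20*, *cwn-1*, *cwn-2* and *mom-2*), of the Frizzled receptors (*lin-17*, *mig-1*, *cfz-2* and *mom-5*) and of the Ror receptor tyrosine kinase *cam-1*. They were chosen by name, as ligand or receptor genes and not by a threshold on their values, but with earlier results of these data known. Each is measured by 1 of the 29317 probe sets of the array, a probe set that carries that gene symbol alone. Wnt proteins are secreted, lipid-bearing signals that bind Frizzled and Ror receptors at the cell surface. In one branch the signal acts through β-catenin on the transcription factor TCF, and in others it sets the polarity of cells or the direction in which cells and axons grow. In the worm the pathway is known for the polarity of dividing cells from the early embryo on, for the migration of neuroblasts along the body and for the placing of axons.

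Affymetrix arrays measured the transcripts of whole wild-type worms (strain N2) and of *ahr-1(ju145)* mutants (strain CZ2485), which carry a mutation in the gene of the worm aryl hydrocarbon receptor, a ligand-activated transcription factor in mammals. Both strains were grown from eggs to day 3 with 0.1% DMSO, the vehicle, alone or with 100 µM curcumin, a plant polyphenol, in 0.1% DMSO. Groups named by DMSO had the vehicle alone. Each of the 4 groups had 5 arrays of independent pools of worms. Each strain stands for 1 genotype. Values are log2 values made by the authors with RMA, which removes background, brings the arrays to 1 distribution and gives 1 value per probe set. The fit holds 19 arrays, because 1 array of the mutants with curcumin, that of replicate 5, failed the quality check described in the methods. A difference between groups is given as a log2 fold change, the difference of the group means, where −1 stands for a ratio of 0.5. It is said to have passed when its two-sided p from limma, adjusted by Benjamini-Hochberg over all probe sets of that comparison, is under 0.1.

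The arrays had medians from 4.22 to 4.30. Transcripts of *ahr-1* itself lay between 4.92 and 5.45 in wild-type and between 4.27 and 4.98 in *ahr-1(ju145)* worms with DMSO (log2 fold change −0.34, standard error 0.14, limma adjusted p = 0.350). The labels and methods do not say whether *ju145* alters the amount of its transcript, so this value does not check the genotype. Markers of neurons (all 10 listed), body wall muscle (8 of 8), intestine (9 of 9), germline and oocytes (12 of 12) and sperm (5 of 8) were on the array. In mutants with DMSO 0 of them passed, where 1.31% of all probe sets were called lower and 0.498% higher. At such shares 0 calls do not show these tissues to be unchanged. Embryo, molting and hypodermis markers, some of which were lower in the mutants, are given after the results they move with. In whole worms, fewer cells of a type and less RNA per cell cannot be told apart.

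Among the ligands, *cwn-2* was lower in *ahr-1(ju145)* than in wild-type worms with DMSO. CWN-2 is a Wnt of the anterior body that acts in the placing of the nerve ring and in the migration of anterior neurons. In wild-type worms with DMSO its log2 values were 5.42, 5.36, 5.21, 4.82 and 5.59 in replicates 1 to 5. In *ahr-1(ju145)* with DMSO they were 4.61, 4.21, 4.25, 4.62 and 4.75. All 5 mutant arrays lay below all 5 wild-type arrays, with wild-type replicate 4 close to the highest mutant arrays. This gave a log2 fold change of −0.79 (standard error 0.18, 95% confidence interval −1.17 to −0.42, n = 5 per group, limma adjusted p = 0.0444), a ratio of 0.577. With the replicate number as a block in limma, the adjusted p was 0.0235. The numbers paired the arrays of these groups, but the block spans all 19 arrays, and pairing was less clear for the arrays with curcumin.

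The call of *cwn-2* rested on single arrays. Among the wild-type arrays with DMSO, leaving out replicate 1 or 5 gave limma adjusted p-values of 0.131 and 0.123. Among the mutant arrays with DMSO, leaving out replicate 2 or 3 gave 0.114 and 0.122. The log2 fold change then lay between −0.76 and −0.72. Over all 31 alternative fits the adjusted p ranged from 0.0193 to 0.680, and 26 of them kept the call.

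**Figure D1:**
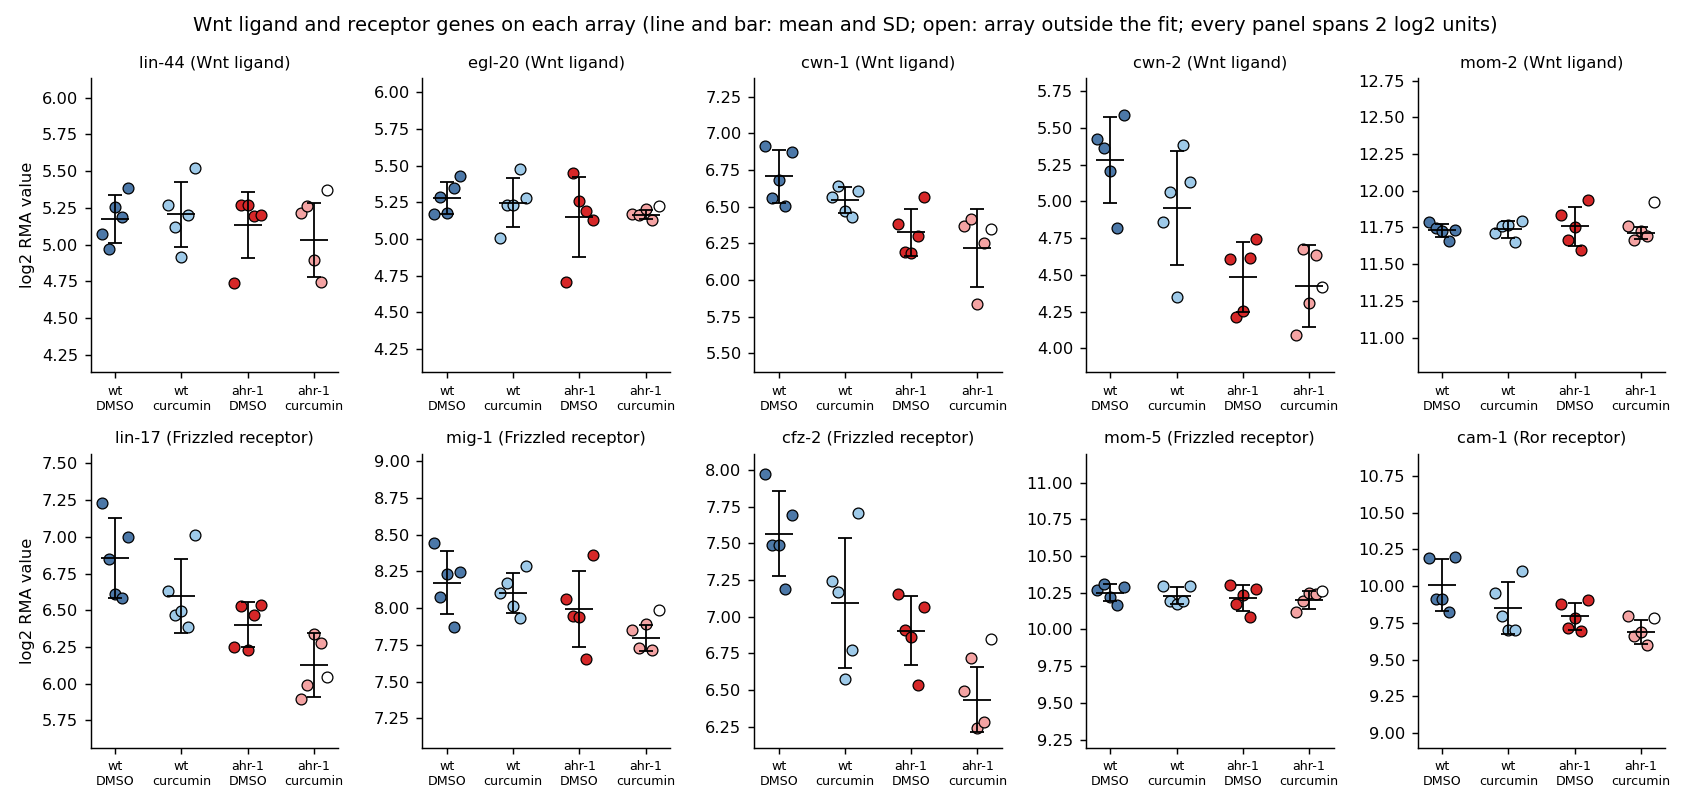
Log2 RMA value of each of the 10 genes on every array (y axis, each panel spanning 2 log2 units), by group (x axis); points within a group are replicates 1 to 5, lines and bars are the mean and SD, and open circles are the array outside the fit. For *cwn-2*, *cfz-2* and *lin-17* the 5 mutant DMSO arrays lie below all 5 wild-type DMSO arrays, while *mom-2* and *mom-5* stay level across the 4 groups.

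*cwn-1*, a Wnt of the posterior body that acts in part redundantly with other Wnts in cell migration, had values of 6.91, 6.56, 6.68, 6.51 and 6.87 in wild-type worms with DMSO. In *ahr-1(ju145)* with DMSO they were 6.38, 6.19, 6.18, 6.30 and 6.57. In the mutants 4 of 5 arrays lay below the wild-type range, and replicate 5 fell inside it. The log2 fold change of −0.38 (standard error 0.11, 95% confidence interval −0.61 to −0.15) did not pass (limma adjusted p = 0.122), but it did with the replicate block (adjusted p = 0.0476).

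The other 3 ligand genes did not pass. *lin-44*, a Wnt made in the tail that orients the divisions of tail cells, ranged from 4.97 to 5.39 in wild-type and from 4.74 to 5.27 in mutant worms with DMSO. Its log2 fold change of −0.04 was close to 0 (95% confidence interval −0.31 to 0.23). *egl-20*, a Wnt of the posterior that steers the migration of the Q neuroblasts, ranged from 5.17 to 5.43 in wild-type and from 4.71 to 5.45 in mutant worms with DMSO, with a log2 fold change of −0.13 (95% confidence interval −0.36 to 0.09). The lowest value of both *lin-44* and *egl-20* in mutants with DMSO was that of replicate 1, and the other 4 arrays lay in or near the wild-type range. *mom-2*, the maternally supplied Wnt that polarizes the endoderm precursor of the early embryo, lay between 11.66 and 11.78 in wild-type and between 11.59 and 11.94 in mutants with DMSO. Its interval, from −0.10 to 0.16 on the log2 scale, was narrow beside those of the other ligands.

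Among the receptors, *cfz-2* had the largest difference. CFZ-2 is a Frizzled of anterior neuron migration. Its values were 7.97, 7.49, 7.49, 7.19 and 7.69 in wild-type worms with DMSO. In *ahr-1(ju145)* with DMSO they were 7.15, 6.91, 6.86, 6.54 and 7.07. The groups did not overlap, and in both groups replicate 1 was highest and replicate 4 lowest. Their difference gave a log2 fold change of −0.66 (standard error 0.18, 95% confidence interval −1.05 to −0.27), a ratio of 0.633, and it missed the threshold by a small margin (limma adjusted p = 0.109). With the replicate block the same difference had a standard error of 0.12 and passed (adjusted p = 0.0101).

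*lin-17*, a Frizzled of asymmetric divisions and of vulval polarity, had values of 7.23, 6.85, 6.61, 6.58 and 7.0 in wild-type worms with DMSO. In mutants with DMSO they were 6.25, 6.53, 6.23, 6.46 and 6.54. Again the groups did not overlap, although the lowest wild-type and the highest mutant arrays were close. A log2 fold change of −0.45 (standard error 0.14, 95% confidence interval −0.74 to −0.17) did not pass (limma adjusted p = 0.143, and 0.110 with the replicate block).

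*cam-1*, the Ror receptor of cell migration and axon growth, had values of 10.19, 9.91, 9.91, 9.83 and 10.20 in wild-type and of 9.88, 9.72, 9.78, 9.69 and 9.90 in mutant worms with DMSO. In mutants 3 of 5 arrays lay below the wild-type range. The log2 fold change of −0.21 (standard error 0.09, 95% confidence interval −0.41 to −0.02) did not pass (limma adjusted p = 0.369), but it did with the replicate block (adjusted p = 0.0583). *mig-1*, a Frizzled of neuroblast and neuron migration, was at −0.18 (95% confidence interval −0.43 to 0.06), with overlapping groups. *mom-5*, the Frizzled of the early embryo, lay between 10.17 and 10.31 in wild-type and between 10.08 and 10.30 in mutants with DMSO. Its log2 fold change of −0.04 had the narrowest interval of the 10 genes (−0.16 to 0.08).

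Counted over the 10 genes, limma called 1 lower and 0 higher in mutants with DMSO, where 1.31% of all probe sets were called lower and 0.498% higher. All 10 had means above the median of all values, and of the probe sets there 2.22% were called lower. The lowest of the 10 means was that of *cwn-2*, at 4.81 beside a median of 4.25. Its mutant DMSO replicates 2 and 3 (4.21 and 4.25) lay at or just below that median. At an unadjusted p under 0.05, 5 were lower and 0 higher, against 5.64% and 5.51% of all probe sets. The 5 mutant arrays lay below all 5 wild-type arrays for 3 of the 10, against 1.83% of all probe sets. Of the 10 log2 fold changes 9 were below 0, as were 44.7% over the whole array, and the median was −0.20 beside 0.02 for all probe sets. With the replicate block limma called *cwn-1*, *cwn-2*, *cfz-2* and *cam-1*, all lower. The 10 genes were chosen with earlier results of these data known, so these counts describe them and were not tested against the shares.

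**Figure D2:**
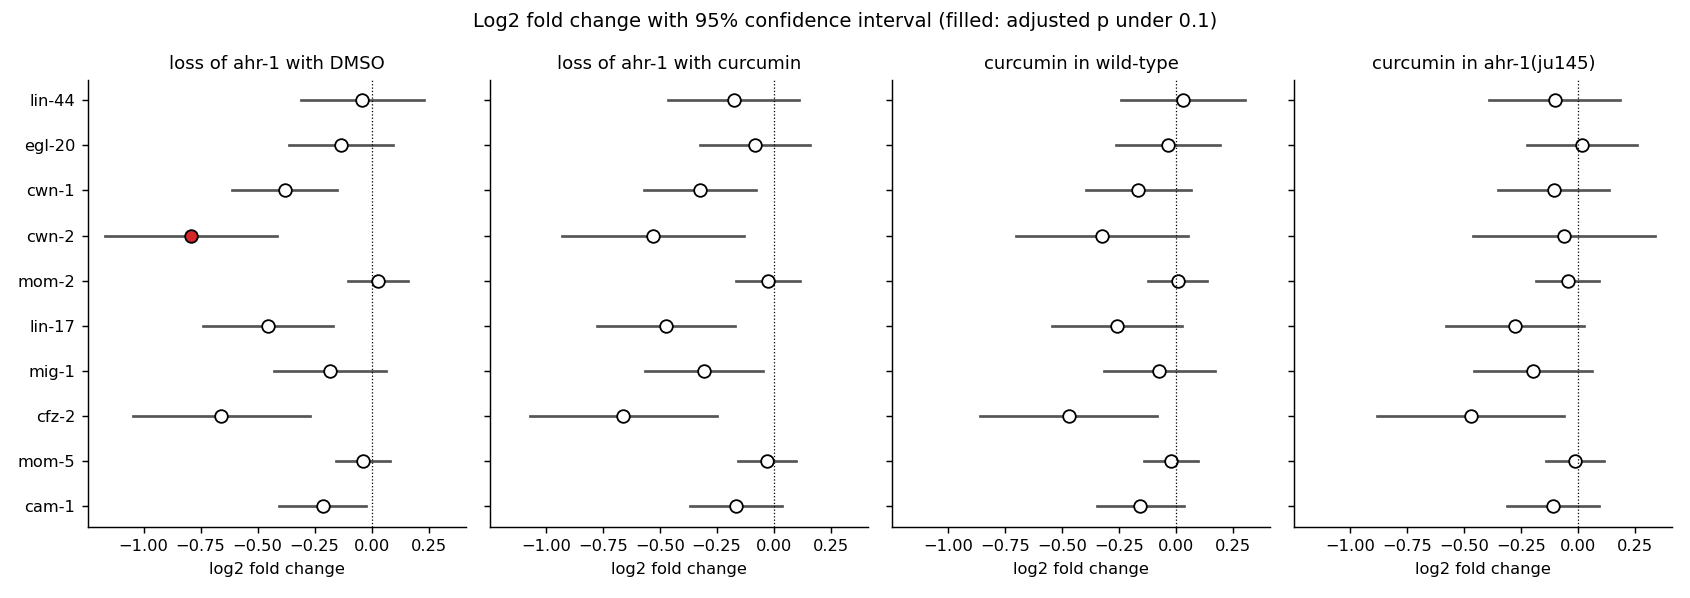
Log2 fold change (x axis) of the 10 genes (y axis) in the 4 pairwise comparisons, with 95% confidence intervals from limma; filled points passed at an adjusted p under 0.1. The single filled point is *cwn-2* with loss of *ahr-1* in DMSO, at −0.79, and the intervals of *mom-2* and *mom-5* are the narrowest in every panel.

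With curcumin in both strains, the mutants were compared with wild-type worms again, on arrays other than those with DMSO, although the estimate of the spread was shared. All 10 log2 fold changes were below 0 (46.4% of all probe sets), with a median of −0.24, and limma called 0 of the 10 (0.379% of all probe sets were called lower and 0.174% higher). At an unadjusted p under 0.05, 5 were lower and 0 higher, against 4.54% and 4.29% of all probe sets. *cwn-2* had values of 4.86, 5.06, 4.35, 5.38 and 5.13 in wild-type and of 4.09, 4.68, 4.31 and 4.63 in *ahr-1(ju145)* worms, so that wild-type replicate 3 fell among the mutant arrays. Here the log2 fold change was −0.53 (standard error 0.19, limma adjusted p = 0.344). Without that array it was −0.68, with an adjusted p of 0.0897.

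*cfz-2* behaved in a like way, with 7.25, 7.17, 6.58, 6.77 and 7.71 in curcumin-treated wild-type and 6.49, 6.72, 6.24 and 6.28 in curcumin-treated *ahr-1(ju145)* worms. Its log2 fold change was −0.66 (standard error 0.20, limma adjusted p = 0.20), and −0.79 without wild-type curcumin replicate 3 (adjusted p = 0.0708). For *cwn-1*, *lin-17* and *mig-1* all 4 mutant arrays lay below all 5 wild-type arrays, where 1.73% of all probe sets did so. Their log2 fold changes were −0.32, −0.47 and −0.31 (standard errors 0.12, 0.14 and 0.12), with limma adjusted p-values of 0.346, 0.222 and 0.443. The left-out mutant array had 4.42 for *cwn-2*, within the range of its group, and 6.85 for *cfz-2*, above the other 4. Its value for *mig-1* was 7.99, above wild-type curcumin replicate 4 (7.93), so with that array *mig-1* overlapped. Its values for *cwn-1* (6.35) and *lin-17* (6.05) lay below all 5 wild-type arrays.

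Curcumin itself moved 0 of the 10 genes past the threshold in either strain. In wild-type worms 0.143% of all probe sets were called, and in *ahr-1(ju145)* worms 0.0648%. Of the 10 log2 fold changes 8 were below 0 in wild-type (50.4% of all probe sets) and 9 in mutants (51.9%). The lowest adjusted p among the 10 was that of *cfz-2* in both strains (limma, 0.674 in wild-type and 0.633 in mutants). Its log2 fold change was −0.47 in wild-type (95% confidence interval −0.86 to −0.08) and −0.47 in *ahr-1(ju145)* worms (−0.88 to −0.06), and 3 curcumin arrays lay below all DMSO arrays in each strain. At an unadjusted p under 0.05 it was the 1 gene of the 10 in each strain, against 3.3% of all probe sets lower in wild-type and 3.86% in mutants. *lin-17* was at −0.26 in wild-type and −0.28 in mutants (standard errors 0.14 and 0.14), and *cwn-2* at −0.32 and −0.06 (standard errors 0.18 and 0.19). These comparisons share their DMSO arrays with that of the strains, so a low or high DMSO group enters both.

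Ordered by their group means, *cwn-1*, *cwn-2*, *lin-17*, *mig-1*, *cfz-2*, *mom-5* and *cam-1* all ran from wild-type with DMSO, the highest, over wild-type with curcumin and *ahr-1(ju145)* with DMSO to *ahr-1(ju145)* with curcumin, the lowest. For *cfz-2* the 4 means were 7.56, 7.09, 6.91 and 6.43 (SD 0.29, 0.44, 0.24 and 0.22), and for *cwn-2* they were 5.28, 4.96, 4.49 and 4.43 (SD 0.29, 0.39, 0.24 and 0.28). Neighbours in this order overlapped for both genes. The middle 2 groups were not tested against each other. The share of all probe sets in this order was not counted, and the genes share arrays and move together within groups. The order is therefore a description. For *mom-5* the order has no weight, since its means lay between 10.20 and 10.25 with SDs from 0.057 to 0.089.

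The effect of curcumin was not shown to differ between the strains for any of the 10. Limma's interaction test called 0 of them and 0 of all probe sets (0% called), and 0 of the 10 had an unadjusted p under 0.05, against 3.36% of all probe sets. The interaction was −0.00079 for *cfz-2*, with a 95% confidence interval from −0.56 to 0.56, and 0.26 for *cwn-2* (−0.29 to 0.81). These intervals are wide enough to hold differences as large as the effects themselves.

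The rest of the pathway was followed through a list of 34 other genes, each with a probe set of its own, also chosen with earlier results known. With loss of *ahr-1* in DMSO limma called 3 of them lower and 0 higher, and the median log2 fold change was −0.05. Of all probe sets 1.31% were called lower and 0.498% higher. Of the genes called, 2 are among the 6 other receptors and modulators and 1 among the 5 targets. The Flamingo cadherin gene *fmi-1* ranged from 6.57 to 7.66 in wild-type and from 5.37 to 6.25 in mutants with DMSO (log2 fold change −1.29, limma adjusted p = 0.0181). *prkl-1*, the gene of the planar polarity protein Prickle, had 7.01, 6.32, 6.29, 6.22 and 6.84 in wild-type worms with DMSO. In mutants it had 5.88, 5.42, 5.74, 5.60 and 6.19, below the wild-type arrays throughout. Its log2 fold change was −0.77 (standard error 0.17, adjusted p = 0.0428). Its call ended when replicate 1 or 5 of the wild-type (0.128 and 0.118) or replicate 2 or 3 of the mutants (0.105 and 0.102) was left out, the same arrays with DMSO as for *cwn-2*.

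*mab-5*, a posterior Hox gene that EGL-20 switches on in a migrating neuroblast, had values of 6.22, 6.28, 5.95, 5.94 and 6.0 in wild-type and of 5.52, 5.73, 5.61, 5.71 and 5.98 in mutant worms with DMSO. In mutants 4 of 5 arrays lay below the wild-type range. Its log2 fold change was −0.37 (standard error 0.10, limma adjusted p = 0.0813), and of 31 alternative fits 16 kept the call, with adjusted p-values from 0.0309 to 0.553. It ended when any one of replicates 1, 2 and 5 of the wild-type with DMSO, replicates 1 to 4 of the mutants with DMSO or replicates 1 and 2 of the wild-type with curcumin was left out (0.101 to 0.212). All 5 genes listed as targets were below 0, against 44.7% of all probe sets, and their median was −0.34. They ran from −0.45 for *ceh-22*, a homeobox gene of the pharynx and gonad, to −0.18 for the Hox gene *egl-5*. The means of *ceh-22* were low, 4.45 in wild-type and 4.00 in mutants with DMSO, beside a median of all values of 4.25. Its change did not pass.

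Secretion genes, cytoplasmic transducers and β-catenins lay close to 0. For the 7 genes of Wnt secretion the log2 fold changes ran from −0.10 to 0.17, for the 8 cytoplasmic transducers (Dishevelled, Axin, APC and kinase genes) from −0.16 to 0.15, and for the 4 β-catenin genes from −0.06 to 0.02. In these 3 groups 0 genes passed limma's test, where 1.31% of all probe sets were called lower and 0.498% higher. At an unadjusted p under 0.05, 0 were lower or higher, against 5.64% and 5.51% of all probe sets. With so few genes, 0 at such shares does not show them to be unchanged. The 4 genes of the nuclear effector and the Nemo branch were all below 0, against 44.7% of all probe sets. Of these, *pop-1*, the TCF gene, was at −0.24 (standard error 0.09, limma adjusted p = 0.313, and 0.0673 with the replicate block), and *lit-1*, the Nemo-like kinase gene, at −0.18 (standard error 0.09, adjusted p = 0.457). The 6 other receptors and modulators had a median of −0.30. Among them *sfrp-1*, a secreted Frizzled-related Wnt inhibitor, was at −0.33 (standard error 0.14, adjusted p = 0.383), *vang-1*, the Van Gogh gene of planar polarity, at −0.20 (standard error 0.13, adjusted p = 0.617), and *lin-18*, the Ryk receptor, at −0.0022 (standard error 0.10).

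**Figure D3:**
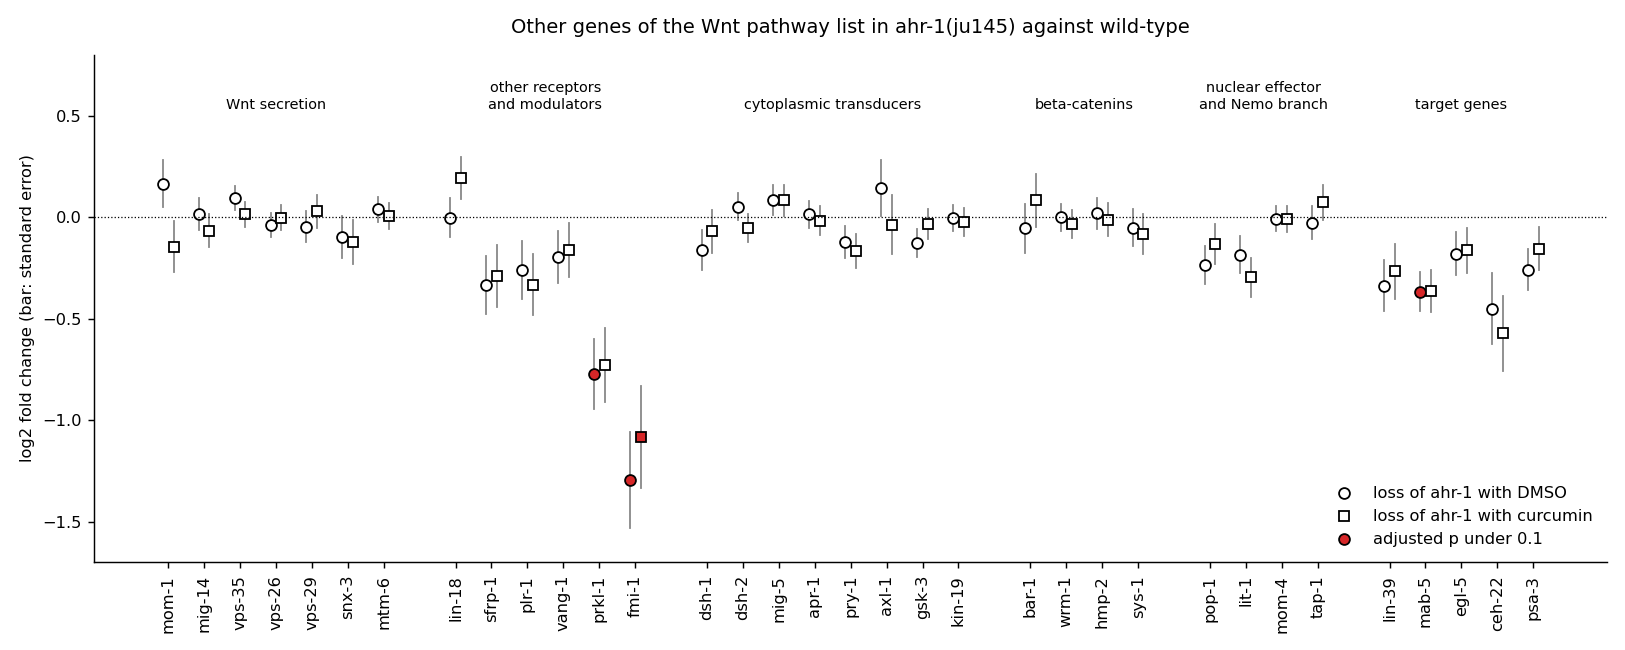
Log2 fold change of *ahr-1(ju145)* against wild-type (y axis, bars are the standard error) for the 34 other genes of the pathway list, grouped by role (x axis), with DMSO (circles) and with curcumin (squares); filled symbols passed at an adjusted p under 0.1. Secretion genes, transducers and β-catenins lie near 0, and the filled symbols are *prkl-1*, *fmi-1* and *mab-5* with DMSO and *fmi-1* with curcumin.

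With curcumin in both strains 1 of the 34 was called lower in the mutants and 0 higher (0.379% and 0.174% of all probe sets), *fmi-1* at −1.08 (standard error 0.25, limma adjusted p = 0.0872). Of the 31 alternative fits 13 kept this call. It ended (adjusted p from 0.102 to 0.264) when any one of these arrays was left out: with curcumin, wild-type replicates 1, 2, 4 and 5 and all 4 of the mutants, and with DMSO, wild-type replicates 2 and 3 and mutant replicates 1, 2 and 4. *prkl-1* was at −0.73 (limma adjusted p = 0.113) and *mab-5* at −0.36 (adjusted p = 0.166). For both, all 4 mutant arrays lay below the 5 wild-type arrays. Of the 34 genes 4 were separated in this way, against 1.73% of all probe sets. The left-out mutant array had 5.80 for *prkl-1*, above wild-type curcumin replicate 3 (5.71), and 5.95 for *mab-5*, below all 5. Curcumin moved 0 of the 34 past the threshold in either strain, where 0.143% of all probe sets were called in wild-type and 0.0648% in mutants. At such shares 0 calls do not show these genes to be unchanged. At an unadjusted p under 0.05, 3 were lower in wild-type and 2 in mutants, against 3.3% and 3.86% of all probe sets.

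The arrays of a group did not deviate from their mean in the same way for all 10 genes. Over the 19 arrays, the deviations of 2 genes from their group means correlated above 0 in 36 of 45 pairs, with a median of 0.37. The highest values were those of *mom-2* with *mig-1* (0.85) and of *cfz-2* with *cam-1* (0.85). *egl-20* stood apart, with correlations below 0 to 7 of the other 9 genes and −0.44 to *mom-2*. These are descriptions, and the points share arrays, normalization and the pools of worms. By the same measure on the values themselves, the genes most like *cwn-2* over the 19 arrays were *lgc-27*, *syg-1* and *ZK287.1* (Pearson 0.91, 0.89 and 0.89). Those most like *cfz-2* were *ceh-32*, *hlh-2* and *let-4* (0.98, 0.98 and 0.98).

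Markers of embryos and of molting moved with several of these genes, and those of body wall muscle, intestine and neurons moved the other way. The mean of 18 embryo markers ran from 7.06 to 7.48 in wild-type and from 6.87 to 7.33 in mutants with DMSO. In mutants 3 of the 18 (*tbx-2*, *nob-1* and *ceh-27*) were called lower, against 1.31% of all probe sets. The 18 log2 fold changes ran from −0.70 to 0.21, with a median of −0.09. Within groups, over the 19 arrays, deviations of this mean correlated at 0.95 with those of *cfz-2*, 0.82 with *cam-1*, 0.74 with *mom-5* and 0.71 with *mig-1*, but at 0.42 with *cwn-2* and −0.40 with *egl-20*. With this mean as a covariate, the log2 fold change of *cfz-2* with DMSO was −0.39 (limma adjusted p = 0.0234), beside −0.66 without it. That of *cwn-2* was −0.68 (adjusted p = 0.0997), beside −0.79 without it, and both were under the threshold. Some embryo markers were themselves lower in the mutants, so the part of genotype and that of the markers cannot be told apart in this fit.

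The mean of 8 body wall muscle markers ran from 10.09 to 10.59 in wild-type and from 10.33 to 10.74 in mutants with DMSO. All 8 had log2 fold changes above 0 (median 0.15), and 0 passed. Its deviations within groups correlated at −0.93 with those of *cfz-2*, −0.83 with *cam-1* and −0.80 with *mig-1*, at −0.43 with *cwn-2* and at 0.43 with *egl-20*. For the mean of 9 intestine markers, which ran from 9.87 to 10.18 in wild-type and from 9.81 to 10.24 in mutants with DMSO, the values were −0.89 with *cam-1*, −0.87 with *mig-1*, −0.80 with *mom-2* and −0.30 with *cwn-2*. For the mean of 10 neuron markers they were −0.69 with *cfz-2*, −0.64 with *cwn-1*, −0.56 with *cwn-2* and 0.22 with *egl-20*. For *cwn-2* the neuron value was the strongest among the marker lists, followed by that of the molting markers below. The part of these tissues in the results was not tested.

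**Figure D4:**
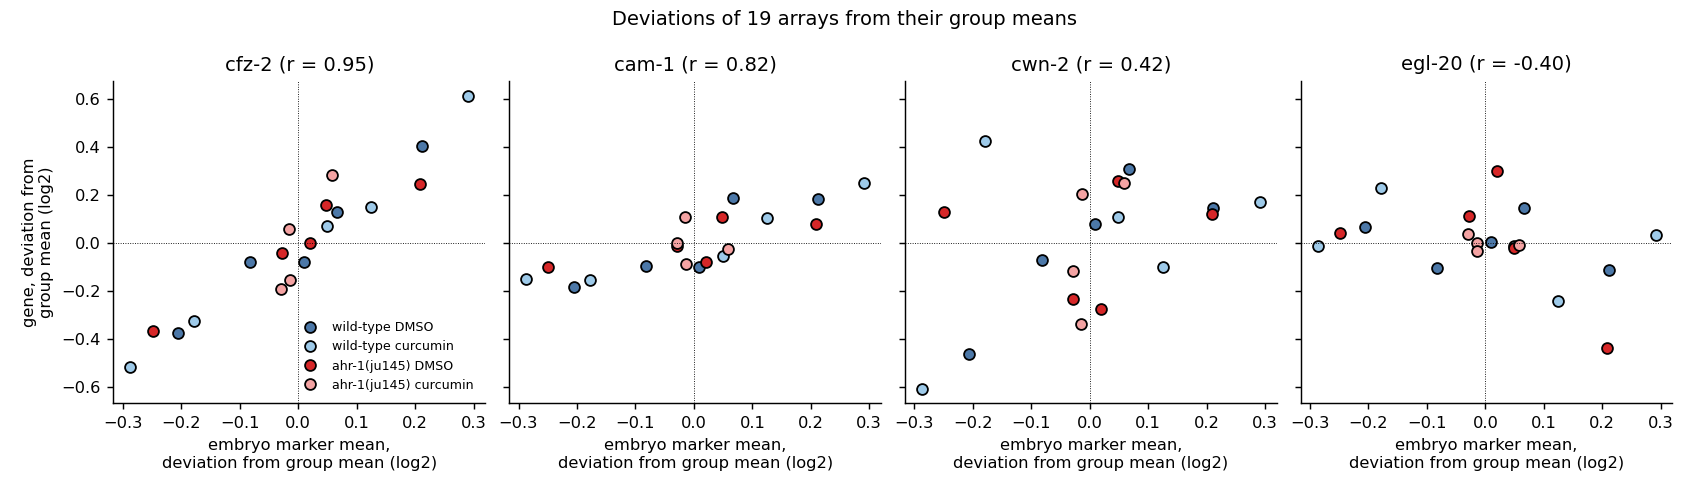
Deviation of a gene from its group mean (y axis, log2) against that of the mean of 18 embryo markers (x axis, log2) on each of 19 arrays, coloured by group, for 4 of the 10 genes. The points of *cfz-2* (r = 0.95) and *cam-1* (r = 0.82) follow the embryo markers, and those of *cwn-2* (r = 0.42) and *egl-20* (r = −0.40) scatter.

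The mean of 12 molting cycle markers did not overlap between the strains with DMSO (6.70 to 6.99 in wild-type, 6.14 to 6.45 in mutants). Of the 12, 5 were called lower (*mlt-11*, *noah-1*, *noah-2*, *ptr-4* and *fbn-1*), against 1.31% of all probe sets. The 12 log2 fold changes ran from −1.60 to 0.21, with a median of −0.37. Within groups, deviations of the molting mean correlated at 0.81 with those of *cfz-2*, 0.65 with *cwn-1*, 0.64 with *cam-1* and 0.51 with *cwn-2*, and at −0.39 with *egl-20*. With this mean as a covariate 0 of the 10 Wnt genes were called. The log2 fold change was then −0.37 for *cwn-2* (limma adjusted p = 0.680), −0.07 for *cwn-1*, −0.22 for *lin-17*, 0.03 for *cfz-2* and 0.03 for *cam-1*. Since the molting markers themselves separate the strains, the part of genotype and that of the markers cannot be told apart in this fit. Of the 8 hypodermis and seam markers measured, 2 (*dpy-7* and *cki-1*) were called lower, against 1.31% of all probe sets. The 8 log2 fold changes ran from −0.94 to 0.29, with a median of −0.11. The part of these markers in the result was not tested.

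**Figure D5:**
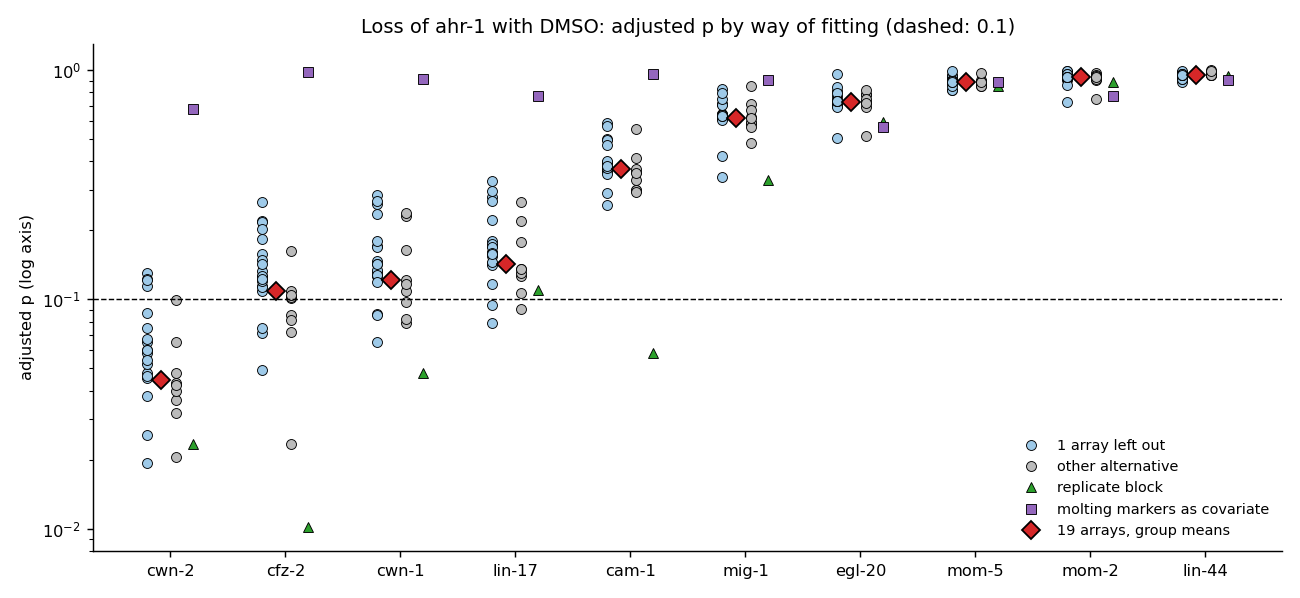
Adjusted p of limma (y axis, log scale, dashed line at 0.1) for loss of *ahr-1* with DMSO, for the 10 genes (x axis), with the 19 arrays (diamonds), with 1 array left out, with the replicate number as a block, with the molting markers as a covariate and with other alternatives. *cwn-2* lies below the line in most fits, *cfz-2* and *cwn-1* on either side of it, and all 10 genes lie above it with the molting markers as a covariate.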

How the data were processed

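The deposited values are log2 values that the authors made from the arrays with the oligo package and RMA (background correction, quantile normalization, probe summary), with 20 arrays in 4 groups. Scanner files were not used here, and the labels and methods name no genome build for the annotation. Further deposited tables hold the authors' own fold changes and p-values, and were not used. Genes were named by the platform's annotation. The 10 genes, the pathway list and the marker lists were chosen with earlier results of these data known. The genes to name were set by a rule: the 10 genes, pathway genes that passed, and the 3 genes most like each of the members with the lowest p. The markers that passed and *pop-1*, *lit-1*, *vang-1*, *sfrp-1*, *lin-18*, *ceh-22* and *egl-5* were named after their values were seen.

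All 29317 probe sets were fitted with limma 3.58.1 in R 4.3.3, as a mean per group over 19 arrays, with no filter and no block (15 residual and 3.38 prior degrees of freedom), and p-values were adjusted within each of 5 comparisons. The fit was also run on simulated data with known changes and noise that was independent between arrays and probe sets. The real arrays share deviations, so that run does not check the p-values given here. Equal replicate numbers paired the arrays of both DMSO groups: the 5 correlations of their deviations from the group means were 0.11 to 0.43, and each mutant array matched its own number best. The labels do not state a pairing, so it comes from the data. Precision is limited by the number of arrays. Alternatives were all 20 arrays, the block, array weights, a fit of the compared groups by themselves, 2 further normalizations, other moderation, 2 narrower sets of probe sets, a threshold of 0.05, 2 marker covariates and each array left out.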

Additional observations from a re-analysis of the deposited data

Results flagged for a closer look

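In *ahr-1(ju145)* worms with DMSO, replicate 1 lay far from the others for *lin-44*, at a log2 value of 4.74 where the other 4 arrays lay between 5.20 and 5.27. The gap to the nearest array was 0.865 of the group's range, above Dixon's limit for 5 arrays. Of the 40 groups of arrays looked at for the 10 genes, 1 was picked out in this way, and chance picks out about 1 in 20.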

How the results depend on the processing

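Of the 10 genes, 1 was called with loss of *ahr-1* in DMSO. The count was 2 with the compared groups alone, with arrays centred on their medians or with the embryo markers as a covariate, 3 with probe sets above the median alone, 4 with the replicate block or array weights, and 0 with the molting markers as a covariate. With 1 array left out it ran from 0 (each of replicates 1 and 5 of the wild-type and 2 and 3 of the mutants with DMSO) to 4 (replicate 4 of the wild-type with DMSO). It was 3 without replicate 5 and 2 without replicate 3 of the wild-type with curcumin, and 2 when the mutant replicate 5 with DMSO or replicate 3 with curcumin was left out. With loss of *ahr-1* under curcumin it was 0, 1 with the replicate block (*cfz-2*, adjusted p = 0.0605), and 0 to 2 with 1 array left out (2 without wild-type curcumin replicate 3). For curcumin in either strain and for the interaction it was 0 in every alternative.

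Of the 34 pathway genes, the count with loss of *ahr-1* in DMSO was 3, 4 with the replicate block (*pop-1* added), 2 (without *mab-5*) with the compared groups alone, a further quantile normalization, trend and robust moderation, a threshold of 0.05 or the embryo markers as a covariate, 0 with the molting markers as a covariate, and 1 to 3 with 1 array left out. Under curcumin it was 1, 2 with the replicate block (*prkl-1* added, adjusted p = 0.0549), array weights, arrays centred on their medians, trend and robust moderation or probe sets above the median alone, 0 with the compared groups alone, a further quantile normalization, a threshold of 0.05 or either marker covariate, and 0 to 2 with 1 array left out. For curcumin in wild-type it was 0, and 1 with the replicate block (*fmi-1*). In each of these other comparisons some same-numbered arrays correlated below 0.1, so no pairing was taken for them, and their block fits stand as alternatives only. Under curcumin in both strains 3 of 4 pairs were above 0.1 (0.084 to 0.23) and all 4 arrays matched their own number best, a hint of pairing from the data and not from the design. A sign other than that of the 19-array fit occurred in 117 of 2002 single-gene values, and in 0 of these had either value passed. Each gene has 1 probe set, so the choice between probe sets was not run.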
